A study of Macaca mulatta with 4 samples.

Results

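Distant GG-only regions are stretches of open chromatin that were found in both libraries of gynogenetic (GG) macaque embryos, in neither library of androgenetic (AG) embryos, and more than 50 kb from any stretch that was open in all 4 libraries. They were chosen from the union of the 4 deposited hotspot lists, in which overlapping or touching hotspots were joined, on chromosomes 1 to 20 of the rheMac8 build. The choice found 6529 regions among 222776 joined regions of these chromosomes (222970 with the sex chromosomes), which is 2.93% of the regions and 53.5% of the 12210 regions open in both GG libraries only. The choice rests on presence and absence in these same libraries, so counts, widths and scores of the chosen regions are a description and carry no test. A distance is the gap between the nearest edges of 2 regions.

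The embryos were rhesus macaque (Macaca mulatta) morulae, in 2 libraries per group (replicates 1 and 2 of each). Genotype is labelled only AG or GG, from androgenetic and gynogenetic embryos as the series design names them. DNase I (40 U/ml) acted for 5 min at a temperature of 37 °C in every library. The labels say that a company and a research institute obtained and grew the embryos, but not how these were made, from which animals, how many went into a library or whether they were pooled. The p-values therefore measure the spread between libraries, which may be technical. Each AG list held 1 hotspot on chromosome Y, and the GG lists held 0.

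An androgenetic embryo has nuclear chromosomes from sperm only and a gynogenetic embryo from the oocyte only, so the same locus is read in its paternal or its maternal form. DNase I cuts DNA where nucleosomes have been displaced, as at promoters, enhancers and insulators, and a hotspot is a stretch with more cuts than its surroundings. Open sites shared by many samples are typically enriched for promoters and insulators, while sites that lie alone are more often distal elements. In mammals the oocyte and sperm genomes enter the embryo with different methylation and histone marks, which are remodelled over the cleavage stages up to the morula. Regions are named by position alone, because genes and sequences of rheMac8 were not analysed here.

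The lists held 64712 to 93089 hotspots on chromosomes 1 to 20 and covered 67.8 Mb in AG replicate 1, 84.3 Mb in AG replicate 2, 102 Mb in GG replicate 1 and 93.1 Mb in GG replicate 2. They hold no read counts, so sequencing depth is unknown. AG replicate 1 had the shortest list. The score of each hotspot is the authors' own value, on a scale that no label or file states.

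Distant GG-only regions were narrower and lower in score than shared open chromatin, and of middling score within the GG lists. Their median width was 1355 bp (quartiles 1062 and 1912 bp), close to the 1396 bp of the 5681 GG-only regions within 50 kb of shared open chromatin and well under the 2927 bp of the 13158 regions open in all 4 libraries. Width went with the number of libraries joined, with medians of 736 to 782 bp for regions of 1 library and 1770 to 1985 bp for those of 3. Among distant regions of 2 libraries, the AG-only ones had a median of 1250 bp and the mixed pairs 1170 bp. Only 87 distant GG-only regions were under 500 bp wide, and 409 reached 3 kb. Their scores had a median of 5.73 in the first GG library and 5.65 in the second, beside list medians of 5.33 and 5.43 and lowest scores of 4.07 and 4.16. In regions open in all 4 libraries the medians were 9.68 and 9.49. The median percentile of these regions within their list was 57.8 in the first GG library and 55.1 in the second.

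Strong calls were few. The top decile of list scores held 398 distant GG-only regions (6.10%) in GG replicate 1 and 302 (4.63%) in GG replicate 2, and 105 were there in both. Across the 6529 regions the scores of the 2 GG libraries went together only loosely (Spearman rho = 0.310), in points that share a threshold and a length. Both GG libraries usually called a region as 1 hotspot, in 97.9% of regions for GG replicate 1 and 97.8% for GG replicate 2. The bases called in both libraries made up a median of 49.4% of a region's width (quartiles 30.8% and 66.3%), and 4 regions were joined from hotspots that touched without sharing a base. At least 50% of the width was called in both libraries in 3216 regions (49.3%).

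In all, these regions spanned 10.4 Mb. They took up 7.57% of the bases covered in GG replicate 1 and 7.98% of those in GG replicate 2.

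Ranked by the lower of their GG scores, the distant GG-only regions were led by chromosome 8 at 7270699 to 7271953, which scored 49.5 in GG replicate 1 and 38.2 in GG replicate 2. Its 1255 bp were covered whole in GG replicate 1 and over 985 bp in GG replicate 2, 61.4 kb from shared open chromatin. Its nearest AG hotspot was 2.54 kb away. Chromosome 17 at 8950345 to 8951000 followed, with scores of 34.5 and 31.0, at 53.6 kb from a shared region and 1.89 kb from an AG hotspot. Both lay just beyond the distance limit.

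The third in this ranking was also the widest of all 6529. Chromosome 7 at 60560295 to 60568325 spanned 8031 bp and was covered over 8002 bp in GG replicate 1 (score 28.4) and 7827 bp in GG replicate 2 (score 23.7), so that 97.1% of it was called in both. No shared region came within 214 kb and no AG hotspot within 39.9 kb. Among the 10 strongest it was the region farthest from any AG hotspot. The other members of the 10 were 458 to 1838 bp wide.

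The remaining strong regions differed in how well the GG libraries agreed on position. On chromosome 17 at 42714069 to 42714976 (scores 25.03 and 19.4) both libraries called 69.5% of the region. On chromosome 4 at 1455730 to 1456862 (scores 20.7 and 20.1) GG replicate 1 covered only 68 bp and GG replicate 2 all 1133 bp. On chromosome 11 at 100866834 to 100868671 (scores 28.3 and 18.2) the shared bases were 4.52% of the width, and an AG hotspot lay 0.411 kb away. High scores in both libraries did not always mean one and the same stretch. The last 4 were on chromosome 8 at 20099227 to 20100134, chromosome 1 at 180973024 to 180973856, chromosome 4 at 122925438 to 122925895 and chromosome 19 at 15979418 to 15980402, with lower scores of 18.9, 18.03, 18.02 and 17.8.

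Among the widest regions, 2 lay on chromosome 7. Besides the first, chromosome 7 at 35919493 to 35926931 spanned 7439 bp, with scores of 13.4 and 13.8. Chromosome 3 at 131016641 to 131023964 spanned 7324 bp with 75.9% called in both libraries. Chromosome 5 held the other 2 of the 5, at 122577922 to 122584996 (7075 bp) and at 145250034 to 145256953 (6920 bp). The former had no AG hotspot within 68.3 kb.

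The median distance from shared open chromatin was 172 kb (quartiles 89.4 and 385 kb). The most remote region, on chromosome 12 at 29749073 to 29751537, was 3125 kb from the nearest shared region, with scores of 4.09 and 4.49, both below the list medians. Other remote ones were chromosome 7 at 103895215 to 103895849 and at 103821853 to 103822857, chromosome 1 at 80989872 to 80991068 and chromosome 12 at 30103673 to 30105653, with gaps of 2959, 2928, 2955 and 2906 kb. Remote regions were hardly weaker than close ones: median scores were 5.83 and 5.80 at 50 to 100 kb and 5.57 and 5.62 beyond 1000 kb, and the median width went from 1391 to 1263 bp.  The 3 just inside it had distances of 50.016, 50.040 and 50.045 kb and lay on chromosomes 15, 5 and 3, with scores from 4.71 to 8.88. Those just outside lay at 49.985, 49.983 and 49.953 kb on chromosomes 7, 1 and 3, with scores from 4.29 to 87.2.

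**Figure D1:**
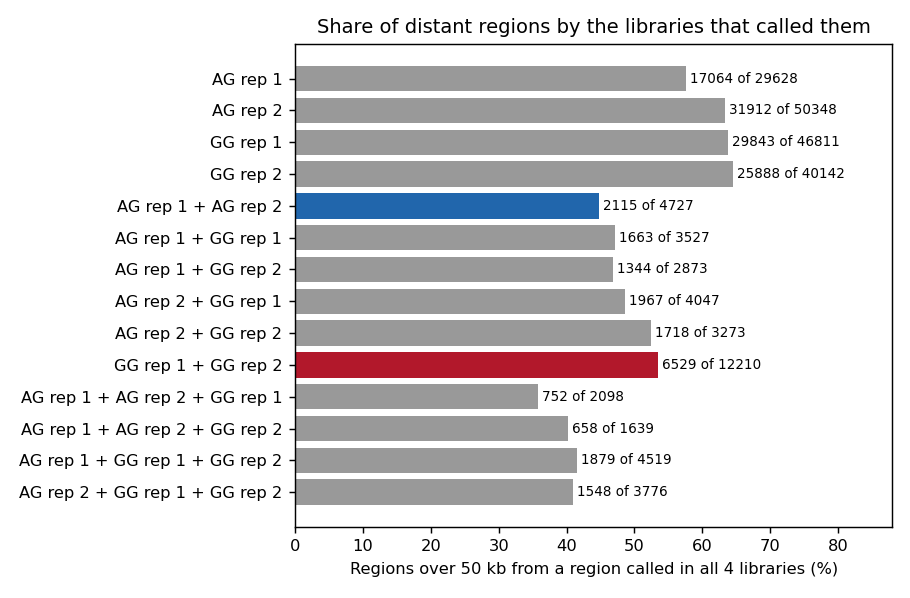
Share of regions more than 50 kb from a region called in all 4 libraries (horizontal axis, percent), for each set of libraries that called a region (rows), with counts beside the bars. The GG pair (red) had 53.5%, the AG pair (blue) 44.7%, and the 4 mixed pairs 46.8 to 52.5%.

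Of regions called in exactly 2 libraries, 53.5% of the GG pair lay beyond 50 kb, against 44.7% of the AG pair and 46.8 to 52.5% of the 4 mixed pairs. The GG pair thus had the highest share, with the pair of AG replicate 2 and GG replicate 2 next at 52.5%. Regions seen in 1 library only were farther out (57.6 to 64.5% beyond 50 kb), and regions seen in 3 libraries nearer (35.8 to 41.6%). Beyond 250 kb lay 20.0% of the GG pair, 13.2% of the AG pair and 13.8 to 18.7% of the mixed pairs. Beyond 1000 kb the shares were 3.40%, 1.38% and 1.71 to 2.69%. Regions are not replicates and the pairs share libraries, so these shares carry no test.

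By number, distant GG-only regions outnumbered distant AG-only regions (both AG and neither GG library) by 6529 to 2115, or 3.09 to 1. Within 50 kb of shared open chromatin the ratio was smaller, at 5681 to 2612, or 2.17 to 1. The ratio climbed with every step in distance: 2.45 at 50 to 100 kb, 3.06 at 100 to 250 kb, 3.59 at 250 to 500 kb, 3.67 at 500 to 1000 kb, and 6.38 beyond 1000 kb, where 415 GG-only regions stood against 65 AG-only regions. Both classes thinned out with distance, but not equally. GG-only regions went from 5.27 per Mb of territory at 50 to 100 kb to 2.31 per Mb beyond 1000 kb, and AG-only regions from 2.15 to 0.362 per Mb.

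The ratio was also counted in shortened lists, chosen after the data were seen. Shortening by score changes the score limit and the shared regions that set the bands as well as the length, so the part of list length in the ratio was not tested. With every list shortened by score to the covered length of the shortest, GG-only and AG-only regions were about equal within 50 kb (2580 and 2691, ratio 0.959), and the ratio went up through 1.11, 1.36, 1.46 and 1.58 to 3.13 beyond 1000 kb (250 and 80). With lists of equal number it ran from 1.53 to 5.18, and with the higher-scoring 50% of each list from 2.19 to 6.73. The total of distant GG-only regions fell to 3265 at equal covered length, of which 2793 overlapped one of the 6529, beside 2382 distant AG-only regions. The excess of GG over AG in number thus went from 3.09 to 1.37 times with lists of equal covered length. With the chosen regions counted, which hold GG bases only, AG coverage fell off faster with distance. From within 50 kb to beyond 1000 kb it went from 30.0 to 4.31 kb per Mb in AG replicate 1 and from 36.2 to 8.92 in AG replicate 2. In GG replicates 1 and 2 it went from 44.0 to 15.2 and from 38.5 to 12.7. Without the chosen regions, the share of covered bases went from 33.7% to 1.14% in AG replicate 1 and from 32.7% to 1.90% in AG replicate 2. In GG replicates 1 and 2 it went from 32.8% to 2.24% and from 31.5% to 2.01%. The part of this fall in the ratio was not tested.

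**Figure D2:**
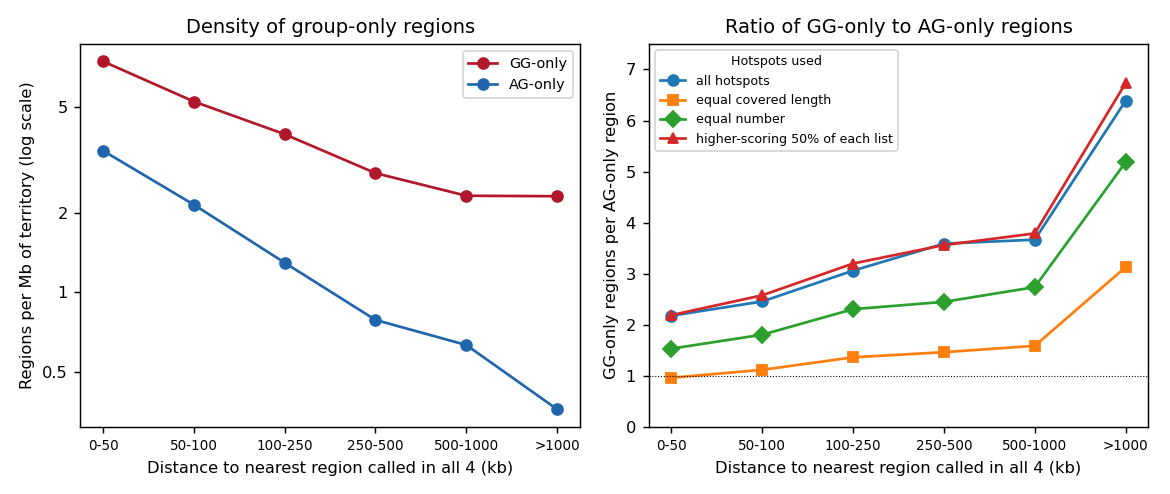
Left, GG-only (red) and AG-only (blue) regions per Mb of territory (log axis) against the distance to the nearest region called in all 4 libraries (kb). Right, GG-only regions per AG-only region in the same bands for all hotspots and 3 shortened sets of lists; the ratio is lowest within 50 kb and highest beyond 1000 kb in each, with 2.17 and 6.38 for all hotspots.

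Distant GG-only regions were found on all 20 autosomes. Positions over 50 kb from a shared region made up 1871 Mb, or 70.0% of the autosomes, and held 3.49 distant GG-only and 1.13 distant AG-only regions per Mb. Chromosome 5 had 79.9% of its length in such territory (152 Mb). It held 538 distant GG-only regions, 8.24% of all (95% Wilson interval 7.60 to 8.93%, for counting error only, with regions taken as independent). Its density of 3.54 per Mb of territory was close to that of the autosomes as a whole. It had 108 distant AG-only regions, the lowest density of any autosome at 0.710 per Mb, and so the highest ratio of GG-only to AG-only regions, 4.98. At 50 to 250 kb from shared regions it was not the extreme. Its AG-only density there was 1.16 per Mb, above chromosomes 2 (1.11) and 9 (1.15). Its ratio there was 3.75, below chromosomes 2 (4.11), 9 (4.05) and 4 (3.85). With lists of equal covered length its ratio beyond 50 kb was 1.94, beside 1.37 for all autosomes.

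The other extreme was chromosome 19, where shared open chromatin was densest at 18.7 regions per Mb. Only 12.8 Mb of it lay over 50 kb from a shared region, with 42 distant GG-only and 38 distant AG-only regions. Its GG-only density of 3.28 per Mb was close to that of chromosome 5, but its AG-only density of 2.97 per Mb was 4.19 times higher. Chromosomes 20 and 10 also had low ratios (1.27 and 1.56), and chromosomes 4 and 9 high ones (4.80 and 4.52). Chromosome 16 had the most distant GG-only regions per Mb of territory (4.65) and chromosome 20 the fewest (2.15).

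Over the 20 autosomes the GG-only density varied 2.16-fold and the AG-only density 4.19-fold. The density of shared regions went with the AG-only density (Spearman rho = 0.735, n = 20 chromosomes) and had a rho of 0.147 with the GG-only density. The 3 densities come from the same lists, so these values only describe the chromosomes. Within the band from 50 to 250 kb, added after the data were seen, the rho values were 0.734 for AG-only and 0.319 for GG-only regions, and the densities varied 3.75-fold and 1.94-fold. At equal covered length rho was 0.773 for AG-only and 0.236 for GG-only regions, and with the higher-scoring 50% of each list 0.826 and 0.406.

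**Figure D3:**
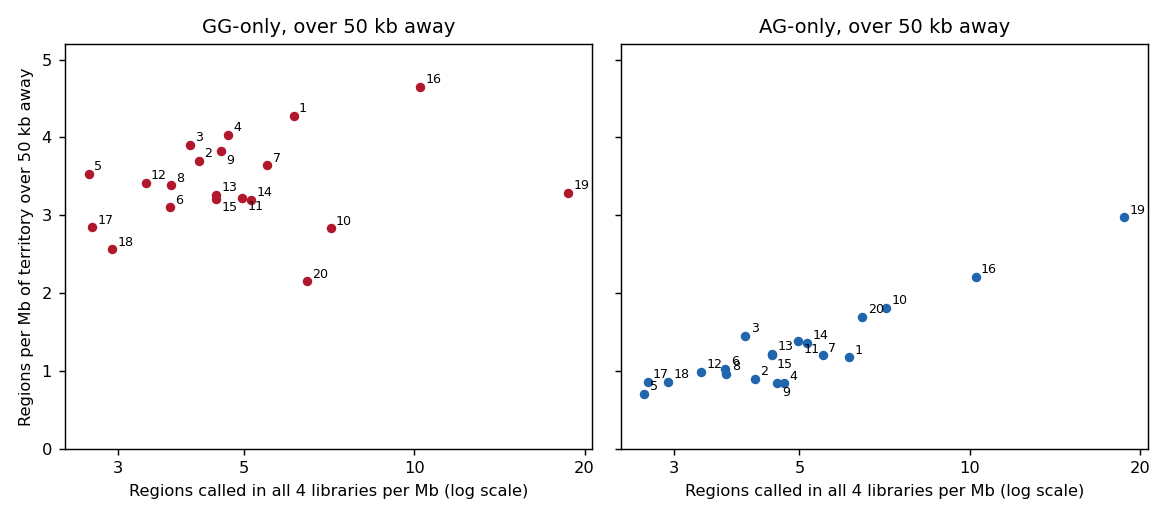
Distant GG-only (left, red) and AG-only (right, blue) regions per Mb of territory over 50 kb from shared regions, against regions called in all 4 libraries per Mb (log axis); each point is an autosome, labelled by number. GG-only density stays between 2.15 and 4.65 across chromosomes, while AG-only density goes from 0.710 on chromosome 5 to 2.97 on chromosome 19.

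Some distant GG-only regions lay in groups and more stood alone. The median gap from a region to the next of its kind was 64.9 kb, and 2883 of the 6529 (44.2%) had another within 50 kb, 20.0% within 10 kb. Distant AG-only regions, fewer over the same territory, had a median gap of 332 kb, with 17.7% within 50 kb of another. GG-only regions near shared open chromatin were more closely spaced, with a median gap of 39.8 kb and 55.6% within 50 kb of another. When regions at most 50 kb apart were chained, 3646 stood alone, 885 chains held 2, and 36 chains held 5 or more.

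The chain with the most regions held 8 over 97.0 kb on chromosome 7, from 69180924 to 69277958. Its strongest member, at 69243014 to 69244604, scored 16.7 and 25.3 in the first and second GG library, and its widest, at 69268015 to 69271878, spanned 3864 bp. Members 4 to 8 of the chain, from 69238145 on, each lay 37.6 to 46.9 kb from the nearest AG hotspot. Chains of 7 were found on chromosome 1 from 116677879 to 116800029 and from 161222281 to 161300921.

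The stretches between neighbouring shared regions give a frame for these groups. Of 4742 stretches longer than 100 kb, 2372 (50.0%) held at least 1 distant GG-only region, and of 592 longer than 1 Mb, 553 did, while 378 held a distant AG-only region. The 61 stretches with 10 or more held 788 distant GG-only and 89 distant AG-only regions, beside totals of 6529 and 2115. These stretches, and the richest of them, were picked by their number of GG-only regions. That choice alone raises GG-only over AG-only counts in them. No stretch held more than 9 distant AG-only regions. The richest was chromosome 5 from 133149011 to 138928232, 5.78 Mb with 25 GG-only and 1 AG-only region. It contained 31 and 77 hotspots in AG replicates 1 and 2 and 162 and 126 in GG replicates 1 and 2. Outside the 25 regions, coverage was 18.4 kb in AG replicate 1, 54.1 kb in AG replicate 2, 112 kb in GG replicate 1 and 93.0 kb in GG replicate 2, so the groups did not overlap there.

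Chromosome 5 held 5 of the 8 richest stretches by number of regions. These 5 were long, at 3.87 to 5.78 Mb. They held 3.21 to 4.91 distant GG-only regions per Mb, beside 3.49 per Mb of all territory over 50 kb from shared regions. From 26339265 to 30210375 it had 19 distant GG-only regions, with 7.68 and 27.2 kb covered outside them in AG replicates 1 and 2 and 87.8 and 55.9 kb in GG replicates 1 and 2. Scaled to each library's covered bases, the GG libraries together had 3.35 times the coverage of the AG libraries, the widest difference of the 8. The stretches from 128416471 to 133146860, 66809370 to 72088736 and 177889689 to 183504479 had 20, 18 and 18 regions and scaled ratios of 2.31, 2.11 and 1.91. In each of these the 2 GG values lay above both AG values.

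Not every rich stretch was GG-high outside the chosen regions. Chromosome 1 from 115826562 to 117444660 packed 20 distant GG-only regions into 1.62 Mb, 12.4 per Mb, yet outside them coverage was 23.0 kb in AG replicate 1, 32.7 kb in AG replicate 2, 44.1 kb in GG replicate 1 and 26.3 kb in GG replicate 2. The groups overlapped and the scaled ratio was 0.984. Chromosome 1 from 78034819 to 84238605 (22 regions) and chromosome 3 from 138591675 to 141767724 (18 regions) had ratios of 1.67 and 2.04.

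**Figure D4:**
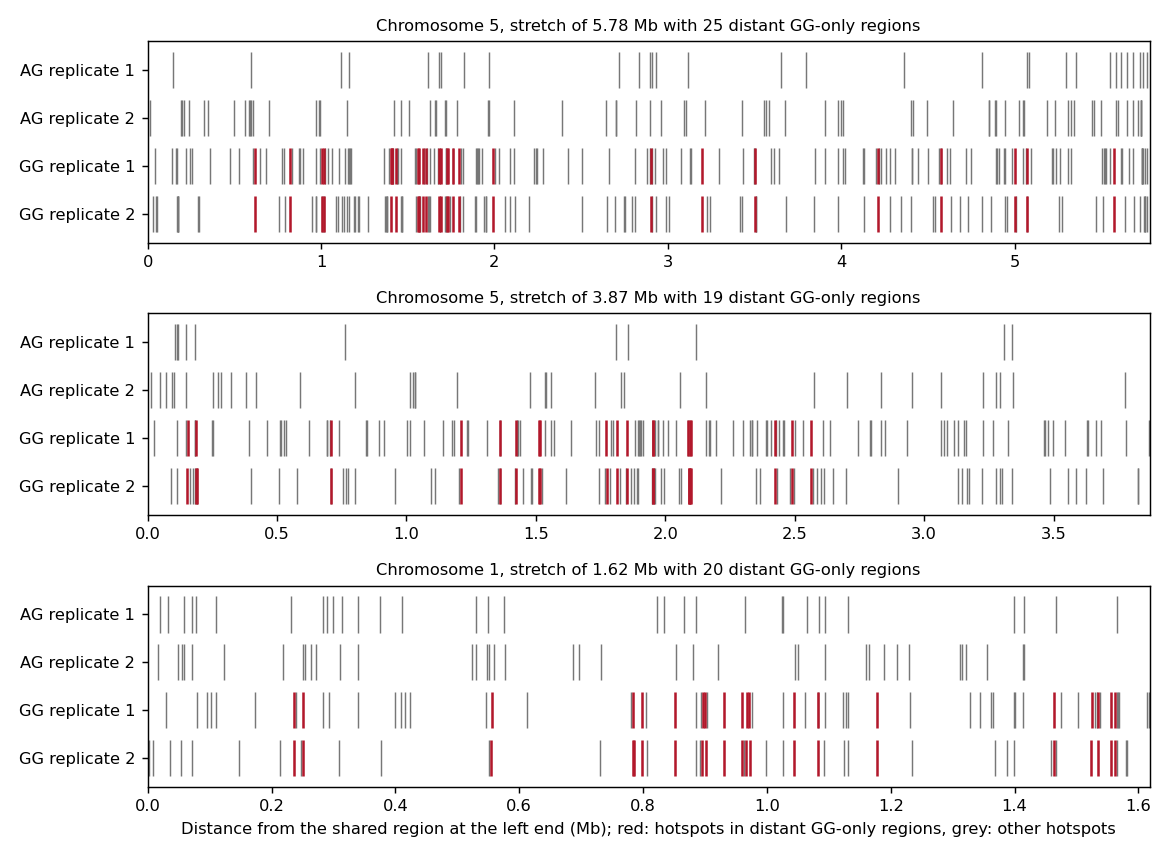
Hotspots of each library (rows) in 3 stretches between neighbouring shared regions, against the distance from the stretch's left end (Mb); red lines are hotspots of distant GG-only regions and grey lines all other hotspots. The 2 stretches of chromosome 5 (25 and 19 distant GG-only regions) have more grey lines in the GG than in the AG rows, while that of chromosome 1 (20 regions) has grey lines in all 4 rows.

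Over all 4532 stretches above 100 kb with a mean of at least 2000 bp covered outside the chosen regions, both GG libraries lay above both AG libraries in 17.5% and both AG above both GG in 29.4%, after scaling to each library's covered bases. Removing the chosen regions takes bases from GG only, so it moves this comparison towards AG. Among the 61 stretches with 10 or more distant GG-only regions, both GG lay above in 34 (55.7%) and both AG in 1. Rich stretches are also long. Among the 592 stretches over 1 Mb, chosen as a check once the data were known, both GG lay above in 19.1% and both AG in 22.8%. Both GG lay above in 12.8% of the 39 with none, 3.64% of the 55 with 1, 10.4% of the 231 with 2 to 4, 23.9% of the 209 with 5 to 9, and 55.2% of the 58 with 10 or more. Length still rose over these classes, with medians of 1.26, 1.30, 1.47, 1.75 and 3.08 Mb in the same order. The comparison therefore does not set length aside, and the part of length was not tested.

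A stretch is rich where both GG libraries and neither AG library had calls. The part of this choice in the contrast was not tested. Each library was also left out of the coverage in turn, with the chosen regions kept as found with all 4 libraries. The library left out thus still had a part in the ranking. The remaining GG values then lay above the remaining AG values in 56.9 to 81.0% of the 58 richest long stretches. The share was 18.2 to 47.2% of the other 534 (15.2% with all libraries). Both highest values came without AG replicate 2, and the share of the others was 25.7% without GG replicate 1 and 30.0% without GG replicate 2. The groups separate more easily with 3 libraries than with 4.

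The same was asked of fixed windows of 1 Mb, with the chosen regions taken out and coverage scaled to each library on a log2 scale with 1000 bp added. Of 2682 windows, limma called 0 (0%) at a Benjamini-Hochberg adjusted p of 0.05, with 373 at an unadjusted p under 0.05, 231 higher in GG and 142 higher in AG. With a variance trend limma called 86, of which 44 were higher in GG. Both GG libraries lay above both AG libraries in 25.8% of all windows, and in 11 of the 16 windows (68.8%) with 10 or more distant GG-only regions. As for the stretches, the part of the choice of regions in this contrast was not tested. The median log2 difference, AG minus GG, was 0.17 in the 479 windows without such regions, -0.25 in the 404 with 5 to 9 and -0.54 in the 16 with 10 or more, beside -0.03 over all windows.

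The window with the widest difference of the 16 was chromosome 5 from 28000001 to 29000000, with 11 distant GG-only regions. Outside them, hotspots covered 2.11 and 2.57 kb in AG replicates 1 and 2 and 32.4 and 22.5 kb in GG replicates 1 and 2, a log2 difference of -2.83 (SE 0.26; limma adjusted p = 0.155, n = 2 libraries per group). Chromosome 5 from 134000001 to 135000000 had 14 regions, with 2.57 and 9.56 kb against 36.4 and 39.4 kb (log2 -2.42, SE 0.46; adjusted p = 0.258). Chromosome 9 from 8000001 to 9000000 had 13, with 11.3 and 11.5 kb against 44.8 and 29.9 kb (log2 -1.36, SE 0.28; adjusted p = 0.270). In these 3 windows the groups did not overlap, but the differences did not pass the limma threshold. One window went the other way: chromosome 1 from 116000001 to 117000000, with 14 regions, had a log2 difference of 0.46 (SE 0.27; adjusted p = 0.499).

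Close to a distant GG-only region, other GG hotspots were frequent. In the first 5 kb beyond its edges, bases in other hotspots came to 47.7 bp per kb in GG replicate 1 and 40.3 in GG replicate 2, against 26.9 and 23.3 at 20 to 25 kb. In AG replicates 1 and 2 the values were 19.1 and 22.5 bp per kb in the first 5 kb and 14.98 and 21.7 at 20 to 25 kb. Around distant AG-only regions, AG replicates 1 and 2 went from 28.5 and 35.6 bp per kb in the first 5 kb to 17.0 and 24.4, and the GG libraries from 28.7 and 27.5 to 26.8 and 23.4. The libraries of a class's own group thus had the steeper fall from its edges. Per Mb covered in each library, a scaling added after the data were seen, the first 5 kb around GG-only regions had 0.281 and 0.267 bp per kb in AG replicates 1 and 2 and 0.467 and 0.433 in GG replicates 1 and 2. Around AG-only regions the scaled values were 0.420 and 0.422 in AG replicates 1 and 2 and 0.281 and 0.295 in GG replicates 1 and 2. On that scale the groups did not overlap around either class, and each group was higher beside its own. Each class was chosen by calls of its own group and none of the other. The part of this choice in the pattern was not tested.

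Within 50 kb on both sides, other hotspots covered a mean of 1563 and 2228 bp per region in AG replicates 1 and 2 and 2975 and 2610 bp in GG replicates 1 and 2. The group means were 1896 ± 470 and 2793 ± 258 bp (SD, n = 2 libraries each), or 1.47 times as much in GG (exact permutation test, two-sided, p = 0.333, the smallest possible with 2 libraries against 2). The groups did not overlap, but the regions were chosen by GG calls and no AG calls. The test exchanged libraries without choosing the regions again, so its p cannot separate the difference from that choice. The AG minus GG difference of -897 bp came to -124 bp without AG replicate 1 and to -209 bp with lists of equal covered length. It turned to 786 bp without GG replicate 1 and to 677 bp without GG replicate 2, where every hotspot of the remaining GG library that is absent from AG is chosen and taken out. Relative to all territory over 50 kb from shared regions, coverage around the chosen regions was 1.42 and 1.24 times as dense in AG replicates 1 and 2 and 1.76 and 1.75 times in GG replicates 1 and 2. Around distant AG-only regions, with those left out, it was 1.90 and 1.57 times as dense in the AG libraries and 1.31 and 1.30 times in the GG libraries. The AG minus GG differences in these multiples were -0.42 around GG-only and 0.43 around AG-only regions (exact permutation p = 0.333 for each). For each class the territory was also taken without the class itself. That lowers the territory coverage, and so raises the multiple, of the class's own group only. Each class was also chosen by calls of its own group and none of the other. These differences therefore cannot show whether the higher coverage of a region's own group was of like size in both classes. The part of these choices in the differences was not tested.

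Across that whole territory the groups overlapped, with or without the chosen regions. With them it held 30.4% and 39.7% of the covered bases of AG replicates 1 and 2 and 38.6% and 38.0% of those of GG replicates 1 and 2. Without them the GG values were 31.1% and 30.1%. The direction of the difference was set by this choice: AG minus GG was -3.26 percentage points with the regions kept (exact permutation p = 1) and 4.52 with them left out (35.1 ± 6.61% and 30.6 ± 0.709%, SD, n = 2 libraries each; two-sided exact permutation p = 0.667). With distant GG-only and AG-only regions both left out it was 1.71 (exact permutation p = 1). The value of 4.52 was 11.5 without AG replicate 1 and 1.39 without AG replicate 2.

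By distance, the share of covered bases in GG over that in AG depended on the same choice. At 50 to 100 kb it was below 1 in each case, at 0.972 with all regions, 0.759 without the GG-only and 0.843 without both classes. From 100 to 1000 kb the direction changed with the choice: the 3 bands (to 250, 500 and 1000 kb) gave 1.07, 1.11 and 1.22 with all regions and 0.846, 0.895 and 0.996 without the GG-only regions. Without both classes they gave 0.920, 0.957 and 1.07. Beyond 1000 kb GG was higher in each case, at 1.69 with all regions, 1.396 without the GG-only and 1.47 without both classes. Without the GG-only regions this band held 1.14% and 1.90% of the covered bases of AG replicates 1 and 2 and 2.24% and 2.01% of those of GG replicates 1 and 2, so the groups did not overlap there. Nor did they at 50 to 100 kb (AG 10.4% and 11.5%, GG 8.48% and 8.12%) or 100 to 250 kb (AG 10.5% and 13.1%, GG 10.05% and 9.97%). In those 2 bands AG was higher. From 250 to 1000 kb the groups overlapped. Leaving out the GG-only regions takes bases from GG only.

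**Figure D5:**
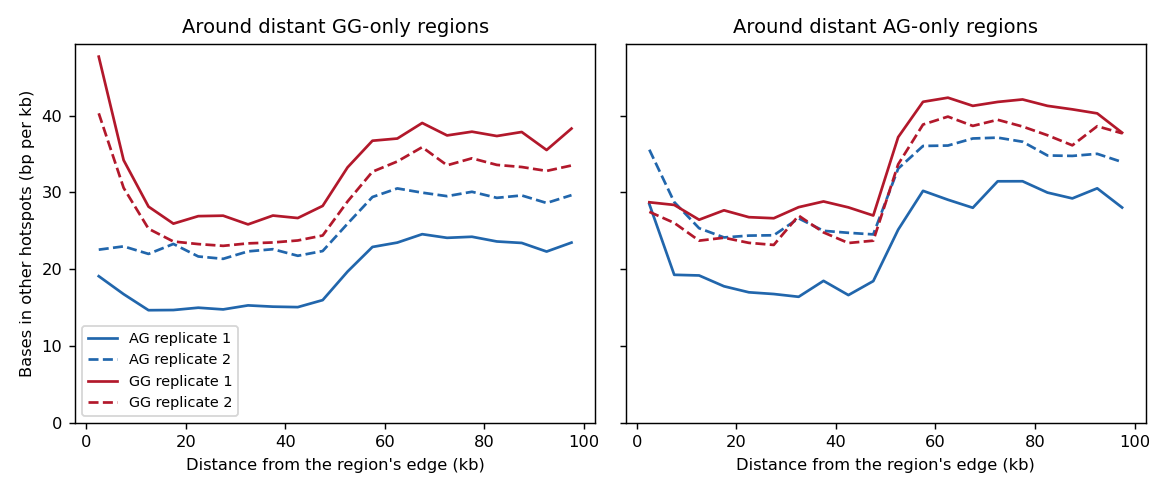
Bases in other hotspots (bp per kb) against the distance from the edge of distant GG-only (left) and AG-only (right) regions (kb), for AG (blue) and GG (red) replicates 1 (solid) and 2 (dashed). In the first 5 kb the GG libraries reach 47.7 and 40.3 bp per kb around GG-only regions; the step at 50 kb comes from the distance limit.

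AG hotspots were near most distant GG-only regions without touching them. The nearest AG hotspot lay at a median of 7.83 kb (quartiles 2.59 and 18.96 kb), 11.7% of regions had one within 1 kb and 56.9% within 10 kb. Distant AG-only regions had their nearest GG hotspot at 6.83 kb, and GG-only regions near shared open chromatin their nearest AG hotspot at 2.88 kb. By library the median gap was 20.4 kb to AG replicate 1 and 14.0 kb to AG replicate 2.

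A smaller set stood apart from AG calls: 360 regions (5.51%) had no AG hotspot within 50 kb. By library, 24.8% had none of AG replicate 1 and 12.9% none of AG replicate 2 within 50 kb. Of the 2115 distant AG-only regions, 76 (3.59%) had no GG hotspot within 50 kb. The 2 classes were measured against lists of unequal length: 64712 and 85269 hotspots in AG replicates 1 and 2, and 93089 and 84748 in GG replicates 1 and 2. The part of list length in these shares was not tested. Chromosome 5 held 59 of the 360 (16.4%), beside 8.24% of all distant GG-only regions, and chromosome 19 held 1. The most isolated, named after its value was seen, was chromosome 2 at 17176463 to 17177483, 260 kb from any AG hotspot, with scores of 4.74 and 4.18 in GG replicates 1 and 2, both below the medians of their lists. The next was chromosome 2 at 127654691 to 127655482, at 257 kb, with 71.2% of its 792 bp called in both GG libraries.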

How the data were processed

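DNase-seq hotspot lists of 4 libraries, 2 AG and 2 GG by their titles, were used as deposited, 1 list per library and not pooled. The authors deposited a position and a score for each hotspot; the lists' names give a false discovery rate of 0.01, and no source used here states the scale of that score or the hotspot caller. The submitters' processing notes name rheMac8 as build and, without saying what each did, deepTools 3.3.1, SAMtools, Bowtie2 and Trim Galore. Positions are printed counted from 1. There are no read counts, so depth is unknown and no counting interval for depth can be given.

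Hotspots on chromosomes 1 to 20 were joined where they overlapped or touched, and a region was present in a library from 1 bp. Chromosome length was the end of the last hotspot in any list. Group means were compared by exact two-sided permutation tests over libraries, and windows of 1 Mb with limma (eBayes after lmFit, with no variance trend, where mean coverage reached 2000 bp). The interval of a share of regions is a 95% Wilson interval that covers counting error only. Steps were tested on simulated data. Named regions were the 10 strongest by the lower GG score, the 5 most distant, the 5 widest, 3 on each side of the limit, and the 8 richest stretches; the chains, windows of 10 or more and isolated regions were chosen after their values were seen. The members and lists of comparisons were chosen with earlier results of these data known. The versions were limma 3.58.1 in R 4.3.3, and scipy 1.17.1, pandas 2.3.3 and numpy 2.4.6 in Python 3.11.15, with figures from matplotlib 3.10.9.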

Additional observations from a re-analysis of the deposited data

Results flagged for a closer look

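Chromosome X lies outside the choice of regions, which took chromosomes 1 to 20. It had 193 joined regions, of which 16 were called in both GG and neither AG library and over 50 kb from a region called in all 4, with a median width of 513.5 bp, beside 2 such regions for AG. All GG-only and AG-only regions of chromosome X lay beyond 50 kb, so the distance limit left none of them out. The 16 are listed because they lie in data that no comparison above used.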

How the results depend on the processing

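Depth is unknown, so absence from a list cannot be told apart from shallow sequencing. A distance limit of 25 kb put 67.0% of GG-only regions beyond it, with 7.52% of those on chromosome 5 and 45.5% within 50 kb of another; at 100 kb these were 37.9%, 9.01% and 41.6%, with 1340 AG-only regions and a median width of 1338 bp. Merging within 150 bp gave a median width of 1375 bp. In the same order (share beyond the limit, on chromosome 5, with another within 50 kb, median width), the higher-scoring 50% of each list gave 60.1%, 6.36%, 33.9% and 1794 bp, with 4164 GG-only and 1282 AG-only distant regions, of which 1692 of the former overlapped none of the 6529. Lists of equal number gave 55.5%, 36.2% and 1515 bp for share beyond the limit, neighbours and width. Lists of equal covered length gave 3265 regions, 55.9%, 7.26%, 29.9% and 1689 bp. Requiring 50% of a region covered gave 1408 distant AG-only regions, 52.0% beyond the limit, 35.6% with a neighbour and 1267 bp.

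With 1 library of a group left out, presence in the other is enough. Leaving out each replicate gave 6524 to 35104 GG-only and 2549 to 30996 AG-only distant regions, 40.6 to 59.0% beyond the limit, 7.64 to 9.85% on chromosome 5, 46.6 to 85.0% with a neighbour, and widths of 756 to 1395.5 bp. The AG minus GG difference in far territory was 1.39 to 24.9 percentage points, and it turned to -3.26 with the chosen regions kept, which by construction restores GG bases only. That in coverage around the regions was -859 to 786 bp, and turned to 786 and 677 bp without GG replicates 1 and 2, where by construction every GG hotspot absent from AG is taken out. Limma called 0 windows without any 1 replicate, 19 with an offset of 10000 bp and 86 with a variance trend. Replicate numbers are not stated to pair samples, and replicate 1 deviations of AG and GG did not go together over windows (r = -0.0870). With a replicate block the differences stayed at 4.52 percentage points (exact sign-flip p = 1) and -897 bp (p = 0.5), and limma called 0 windows.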
